A study of Mus musculus with 16 samples.

Results

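Expression of 9 genes of neural cell adhesion was followed in preSC, mouse cells that the labels call precancerous for small cell lung cancer: Chl1, L1cam, Nrcam and Nfasc of the L1 family, Negr1, Lsamp, Ntm and Opcml of the IgLON family, and the contactin Cntn1. They are 9 of the 17655 genes listed, taken by symbol, and the set was chosen by family around 2 genes selected on their values between the groups, Chl1, which was much lower with Wnt5a, and Negr1, which was seen almost only with Wnt5a. Their differences between the groups are therefore a description and carry no test. RNA was sequenced from cells infected with an empty lentiviral control ("empty") and from cells infected with lentiviral Wnt5a ("Wnt5a"), 8 deposited samples each. Per the labels, all are Chga-positive lung neuroendocrine cells, Rb1 null, Trp53 null and heterozygous null for Rbl2, and both groups were kept in doxycycline (1 µg/mL) for the last 48 hours of culture, so the controls carry these alterations and this drug too. The labels do not say how many independently infected cultures the samples come from. The reads of samples 1 to 4 of a group differed by little more than sampling noise, as did those of samples 5 to 8 (index of dispersion 0.987 to 1.05 in 24 such pairs against 5.23 to 5.44 in the other 32), so each set of 4 was averaged and counted as 1 library, A and B. All comparisons rest on 2 libraries per group, whose spread may be technical. Values are normalised read counts, the authors' gene counts divided by 1 factor per sample, from 7526676 to 8859862 reads per sample.

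The 4 L1 family proteins are transmembrane adhesion molecules with immunoglobulin and fibronectin type III domains outside the cell and a short tail that binds ankyrin and, through it, the spectrin cytoskeleton. IgLON proteins are small immunoglobulin-domain proteins held on the outer membrane by a GPI lipid anchor, and they bind one another across and within membranes. Contactins are GPI-anchored as well and often act with L1 family members. All are best known from axon growth, fasciculation and synapse formation, and L1 family members also appear in neuroendocrine cells and tumours.

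The labelled cell type was checked against markers. All 8 neuroendocrine markers were abundant in both groups, with a summed level between 51992 and 53825 in empty samples and between 48488 and 52058 in Wnt5a samples. Of the neuronal markers, Map2, Tubb3, Snap25 and Syt1 were abundant, while Rbfox3, Nefl and Nefm did not exceed 7.16 in any sample. Among the 21 listed markers of glia, fibroblasts, endothelium, leukocytes and lung epithelium, Mbp, Dcn and Vwf were abundant and the remaining 18 did not exceed 34.5. Wnt5a itself spanned 90.4 to 174 in empty samples and 1032 to 1560 in those infected with it, a log2 difference of 3.38 (SE 0.22, limma adjusted p = 0.0010).

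The stretches upstream of Chl1 and Negr1 are shown because these 2 genes differed most between the groups. Each line gives the 250 bases before the RefSeq start (GRCm38.p6, plus strand, 5′ to 3′), Chl1 from chr6:103510626-103510875 and Negr1 from chr3:156561544-156561793. Capitals mark matches, on either strand, to 4 searched motifs that are spelled out after the sequences, and each stretch matched only 1 of them.
Chl1: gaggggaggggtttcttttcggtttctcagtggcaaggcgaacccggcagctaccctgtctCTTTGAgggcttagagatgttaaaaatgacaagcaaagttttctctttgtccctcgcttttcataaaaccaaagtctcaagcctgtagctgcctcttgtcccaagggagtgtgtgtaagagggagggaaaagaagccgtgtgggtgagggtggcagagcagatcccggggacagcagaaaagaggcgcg
Negr1: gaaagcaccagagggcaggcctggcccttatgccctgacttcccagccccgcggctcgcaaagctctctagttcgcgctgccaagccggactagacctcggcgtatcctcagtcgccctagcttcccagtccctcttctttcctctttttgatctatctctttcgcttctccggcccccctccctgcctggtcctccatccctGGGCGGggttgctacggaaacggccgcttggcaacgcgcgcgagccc
The match upstream of Chl1 is CTTTGA, a core bound by TCF/LEF factors, and the match upstream of Negr1 is GGGCGG, a GC box. In all 32851 RefSeq promoter windows of this length, 13.8% held CTTTGA and 32.7% held GGGCGG. Over the windows of the 9 genes, all of which were matched by symbol, CTTTGA was found for Chl1 and Cntn1 and GGGCGG for L1cam, Nrcam, Nfasc, Negr1 and Ntm. CAGCTG, a form of the E-box bound by basic helix-loop-helix factors, was in 0 of the 9 and in 13.0% of all windows, and TATAAA was found for Cntn1 and in 12.4% of all windows. A gene was counted if any of its windows held a match, and some of the 9 have several windows. The percents count single windows, so the gene counts cannot be set directly against them. The Negr1 stretch held 19 CpG dinucleotides and the Chl1 stretch 8, against a median of 6 over all windows.

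Chl1 encodes close homolog of L1, which acts with neuropilin and integrin co-receptors in neurite growth and cell migration. In the 8 empty samples its normalised read count ran from 914 through a median of 1137 to 1459, and in the 8 Wnt5a samples from 161 through 174 to 194. Every empty sample lay above every Wnt5a sample. Library by library it was 935 (empty A), 1392 (empty B), 173 (Wnt5a A) and 179 (Wnt5a B), resting on 3390, 5465, 735 and 762 reads. The means of 1163 ± 323 and 176 ± 4.24 (SD, n = 2) differ 6.62-fold, or by -2.69 on the scale of log2(value + 1) (SE 0.17). Within the A libraries the log2 difference was -2.43 and within the B libraries -2.95, and leaving out each library in turn gave -2.98 to -2.41. Between the 2 empty libraries B was 1.49 times A, while in the Wnt5a cells the libraries were nearly level, with B at 1.03 times A. In bulk RNA, fewer cells that express a gene and less RNA per cell cannot be told apart.

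**Figure D1:**
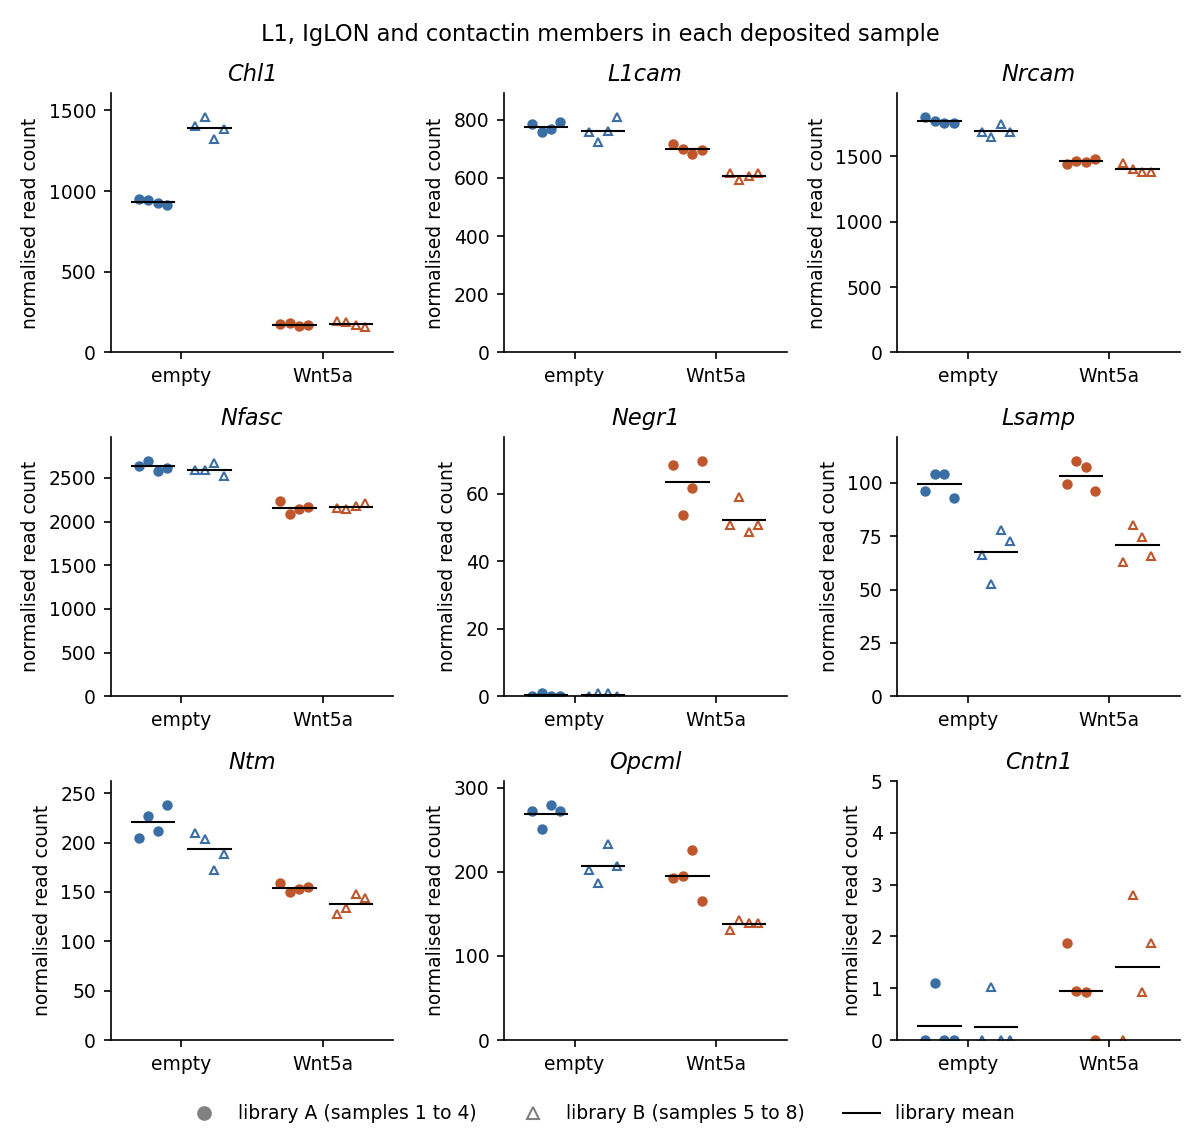
Normalised read count (vertical axes, each starting at 0) of the 9 genes in each of the 16 deposited samples, by group. Filled circles are samples of library A, open triangles samples of library B and black bars library means; Chl1 lies at 914 to 1459 in empty and 161 to 194 in Wnt5a samples, and Negr1 at or below 1.11 in all empty samples.

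Summed markers of neurons and fibroblasts were lower in the Wnt5a samples without overlap, and those of endothelium with overlap, and their part in the result for Chl1 was not tested. The 7 neuronal markers summed to between 8389 and 9399 in empty samples and between 7088 and 7721 with Wnt5a, and Map2, the most abundant, averaged 3951 and 3083. Over the 5 listed fibroblast markers the summed level spanned 327 to 636 in empty samples against 235 to 263 in Wnt5a samples, nearly all of it Dcn. Over the 4 endothelial markers it spanned 2310 to 3267 against 1959 to 2330, nearly all of it Vwf. The defining fibroblast collagens Col1a1, Col1a2 and Col3a1 were near 0, with at most 5.08 in any sample, and so was the endothelial Cdh5. In empty A and B, Dcn averaged 597 and 340.2, and Chl1 averaged 935 and 1392. In Wnt5a A and B, Dcn averaged 241 and 246 and Chl1 averaged 173 and 179, both lower than in either empty library. Whether the levels of Dcn and Chl1 are related was not tested.

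The 3 other L1 family genes were lower in the Wnt5a samples by much less, and for each of them the 8 samples of a group did not overlap those of the other. Of all tested genes, 12.4% showed no overlap (5.95% lower with Wnt5a). The 8 samples amount to 2 libraries, and the members were chosen with this comparison known, so nothing is read from the lack of overlap. L1cam, the founding member and a receptor for axon growth, ran from 723 through 766 to 809 in the empty and from 594 through 649 to 718 in the Wnt5a samples. Its library means of 769.5 ± 9.55 and 654 ± 64.5 (SD, n = 2) differ by -0.24 on the log2 scale (SE 0.09), with -0.15 in A and -0.33 in B, and -0.14 without Wnt5a B. The lowest empty sample and the highest Wnt5a sample of L1cam were thus almost at the same level.

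Nrcam, which helps to gather sodium channels at nodes of Ranvier, ran from 1644 through 1749 to 1799 in the empty and from 1379 through 1445 to 1479 in the Wnt5a samples. Its library means were 1730 ± 54.3 and 1432 ± 40.8 (SD, n = 2), a log2 difference of -0.27 (SE 0.07). This difference was nearly the same in both library pairs, -0.28 in A and -0.27 in B.

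Nfasc encodes neurofascin, which anchors the axon initial segment and the paranodal junction. It ran from 2516 through 2600.2 to 2695 in the empty and from 2083 through 2160 to 2239 in the Wnt5a samples. Its library means were 2610.1 ± 28.6 and 2164 ± 8.66 (SD, n = 2), a log2 difference of -0.27 (SE 0.07), with -0.29 in A and -0.26 in B. Nfasc lies on chromosome 1, where the median of 690 tested genes was -0.17, so many genes of that chromosome were lower too. For the 7 other members that passed the filter on low values the chromosome median lay between -0.02 and 0.02.

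Negr1, an IgLON linked to neurite outgrowth and body weight, was almost without reads in the empty cells. It had 1 and 2 reads in empty libraries A and B, at or under a floor of 3 reads per library, against 270 (A) and 223 (B) with Wnt5a. Its normalised read count ran from 0 through 0 to 1.11 in the empty and from 48.6 through 56.3 to 69.7 in the Wnt5a samples. Reads were present in 3 of 8 empty samples and in 8 of 8 Wnt5a samples. Over all samples of a group, 3 reads stood against 493, a depth-corrected ratio of 146 with an exact 95% interval of 49.5 to 708 that covers counting error only. The library means were 0.392 ± 0.163 and 57.8 ± 7.87 (SD, n = 2). On the log2 scale the difference was 5.40 with a pseudocount of 1 and 2.70 with a pseudocount of 10, so its size depends on that choice.

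Cntn1 encodes contactin 1, which binds neurofascin at the paranodal junction together with Caspr, and was at the edge of detection. It had 1 read in each empty library and 4 and 6 reads in the Wnt5a libraries, and no sample exceeded 2.81. Over all samples 2 reads stood against 10, a depth-corrected ratio of 4.43. Its exact 95% interval of 0.944 to 41.6 includes 1 and covers counting error only. Cntn1 did not pass the filter of a mean value of at least 10 and entered no fit.

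Lsamp encodes the limbic system-associated membrane protein. It ran from 52.8 through 85.4 to 104 in the empty and from 63.0 through 88.3 to 110 in the Wnt5a samples, so the groups overlapped widely. Its library means were 83.4 ± 22.5 and 87.2 ± 22.9 (SD, n = 2), a log2 difference of 0.06 (SE 0.24). That difference is far inside the spread between libraries, and leaving out 1 library turned its sign to -0.20 (without Wnt5a A) and -0.21 (without empty B).

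Ntm, which encodes neurotrimin, and Opcml, which encodes a family member known as a tumour suppressor in ovarian cancer, were both lower in the Wnt5a cells. Ntm ran from 172 through 207 to 238 in the empty and from 128 through 149 to 159 in the Wnt5a samples, with no overlap. Its library means of 207 ± 19.1 and 146 ± 11.3 (SD, n = 2) differ by -0.50 on the log2 scale (SE 0.12), with -0.51 in A and -0.48 in B. Opcml ran from 187 through 242 to 279.8 in the empty and from 131 through 154 to 226 in the Wnt5a samples, and here the groups overlapped. Its library means of 238 ± 43.7 and 166 ± 40.0 (SD, n = 2) differ by -0.52 on the log2 scale (SE 0.19). Compared within a library pair, Opcml differed by -0.47 in A and by -0.58 in B. Leaving out 1 library gave -0.28 (without Wnt5a B), -0.34 (without empty A), -0.71 (without empty B) and -0.77 (without Wnt5a A). Ntm and Opcml are next to each other among the listed genes of chromosome 9, and their log2 differences were close in size.

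**Figure D2:**
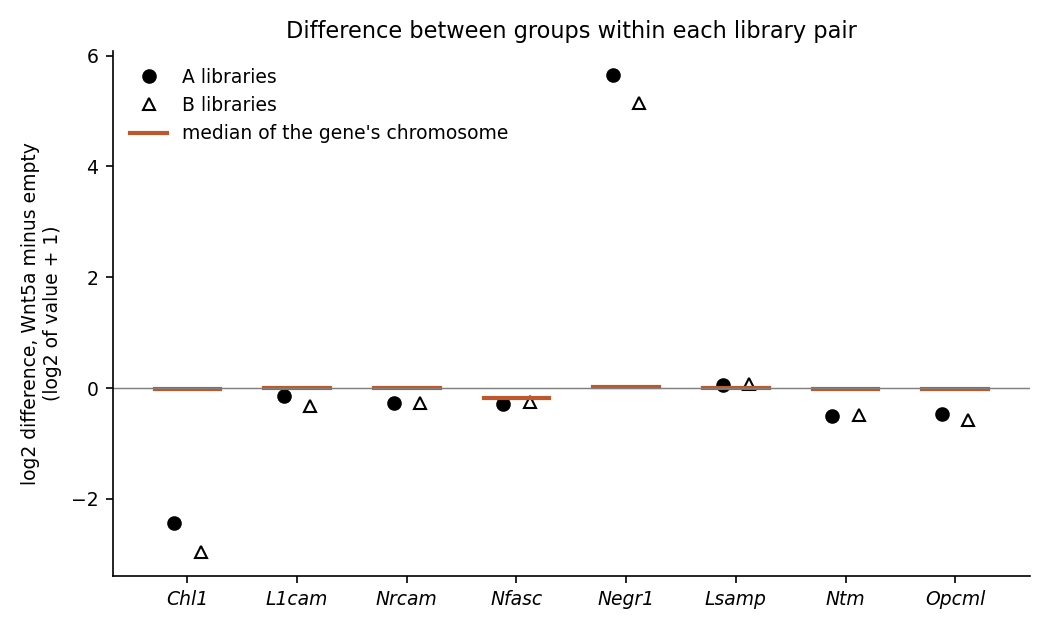
Difference between Wnt5a and empty (vertical axis, log2 of value + 1) for the 8 genes that passed the filter, within the A libraries (filled circles) and within the B libraries (open triangles). Orange bars mark the median of all tested genes on the same chromosome; Chl1 (-2.43 and -2.95) and Negr1 (5.66 and 5.14) stand far from the other 6 genes.

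Of the 8 members that passed the filter (a mean value of at least 10), 6 were lower and 2 higher with Wnt5a. Their median log2 difference was -0.27, against 0.0026 over the 12357 genes tested. The samples of the groups did not overlap for 6 of the 8 (1 higher, 5 lower), against 12.4% of all tested genes (6.45% higher and 5.95% lower). Since the members were chosen with this comparison known, and Negr1 passed the filter only through the Wnt5a libraries, nothing is read from these counts. For the same reason no calls of members are given for this comparison. Over all genes tested, 2.06% were called at a limma adjusted p under 0.05 (1.38% higher and 0.672% lower). With the replicate number as a block, 17.0% of all genes were called (8.68% higher and 8.27% lower).

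Levels of different genes were compared per kb of the longest GENCODE M21 transcript. In the empty cells the order was Nrcam (276 ± 8.66 per kb), Nfasc (268 ± 2.93), Chl1 (154 ± 42.7), L1cam (150.1 ± 1.86), Ntm (65.3 ± 6.04), Opcml (35.7 ± 6.55), Lsamp (9.48 ± 2.56), Negr1 (0.0787 ± 0.0328) and Cntn1 (0.0468 ± 0.0028; SD, n = 2 libraries). Nrcam and Nfasc overlapped between libraries, as did Chl1 and L1cam, while the other neighbours in this order were apart except that Negr1 and Cntn1 both rest on 3 reads or fewer. Among the 12225 tested genes with a length, Nrcam stood above 81.2% and Lsamp above 7.71% of genes in the empty cells.

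In the Wnt5a cells Nrcam (228 ± 6.50 per kb) and Nfasc (222 ± 0.889) stayed at the top, followed by L1cam (128 ± 12.6), Ntm (46.2 ± 3.57), Opcml (24.9 ± 5.99), Chl1 (23.2 ± 0.561), Negr1 (11.6 ± 1.58), Lsamp (9.91 ± 2.60) and Cntn1 (0.207 ± 0.0582; SD, n = 2 libraries). Chl1 was thus in place 3 of the order in the empty cells and in place 6 in the Wnt5a cells, where its libraries overlapped those of Opcml. On this scale Negr1 reached the level of Lsamp, with overlapping libraries. Per kb of coding sequence, a scale chosen after the data were seen, Nfasc stood above Nrcam in both groups, and Chl1 went from place 3 to place 8. There Negr1 stayed below Lsamp in the Wnt5a cells (55.4 against 81.8). Opcml stood above Ntm in both groups (230 against 200 in the empty and 161 against 142 in the Wnt5a cells). In the empty cells Opcml also stood above L1cam (204) on the coding scale.

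**Figure D3:**
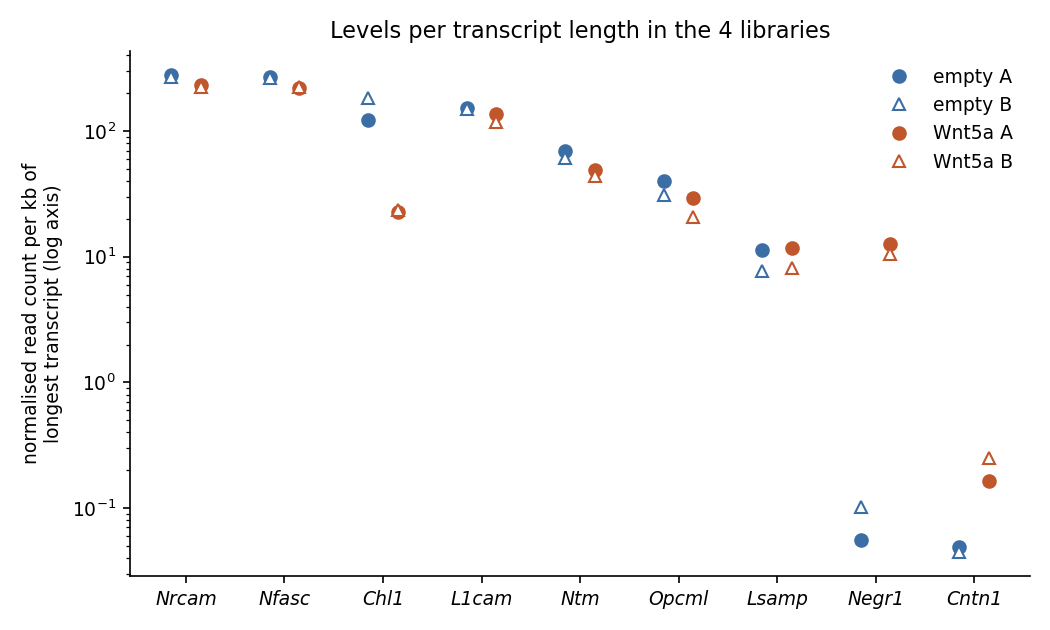
Level of each gene per kb of its longest transcript (vertical log axis) in the 4 libraries, ordered by the mean of the empty libraries. Blue marks empty and orange Wnt5a, circles library A and triangles library B; Nrcam and Nfasc lead in both groups, and Chl1 goes from 154 to 23.2 and Negr1 from 0.0787 to 11.6 per kb.

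Summed per kb, the L1 family was at 848 ± 29.3 in the empty and 601 ± 17.6 in the Wnt5a libraries (SD, n = 2), a ratio of 0.709. Chl1 made up 18.1% of that sum in the empty and 3.86% in the Wnt5a cells. Without Chl1 the sum was 694 ± 13.5 and 578 ± 18.2, a ratio of 0.833. The IgLON sum was 111 ± 15.1 and 92.7 ± 13.7, and Negr1 made up 0.0712% and 12.5% of it. Without Negr1 the IgLON sum was 110.5 ± 15.1 and 81.0 ± 12.2, a ratio of 0.733.

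A contrast that played no role in choosing the genes is that between the libraries of a group. Library B was compared with library A in both groups at once by limma, with the group in the model and Benjamini-Hochberg adjustment over all 12357 genes. At an adjusted p under 0.05, 2 of the 8 members were called, against 7.41% of all genes (3.33% higher and 4.09% lower in B), and both were IgLON genes that fell from A to B. Lsamp was at 99.3 and 67.5 in empty A and B and at 103 and 71.0 in Wnt5a A and B, a log2 difference of -0.54 (SE 0.10, limma adjusted p = 0.029). Opcml was at 269 and 207 and at 195 and 138 in the same order, a log2 difference of -0.43 (SE 0.07, limma adjusted p = 0.026). For both genes the step from A to B had the same direction in both groups. The fit counts disagreement between the groups as error, so this is largely set by the call and adds no support to it.

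The IgLON gene Ntm differed by -0.17 between the libraries (limma adjusted p = 0.174), and the L1 genes Nrcam and Nfasc by -0.06 and -0.01 (limma adjusted p = 0.383 and 0.927). Chl1 differed by 0.31 (limma adjusted p = 0.128), made up of 0.57 between the empty and 0.05 between the Wnt5a libraries, and that unevenness could not be tested with 1 library in each group and set. The model leaves 1 residual degree of freedom, and both calls were lost without the trend in eBayes (adjusted p = 0.191 for both) and without the filter (adjusted p = 0.130 for Lsamp and 0.126 for Opcml).

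The chromosomal neighbours of the 2 genes that differed most were examined, 3 listed genes on each side. Chl1 lies on chromosome 6 between 2 contactin genes. Cntn3, on one side, had levels of 1322 and 1638 without and 1315 and 1346 with Wnt5a, -0.15 apart on the log2 scale (limma adjusted p = 0.615). Cntn6, on the other side, had at most 4 reads in any library. Ppp4r2, Gm19757 and Gm15631 differed by 0.03, 0.09 and 0.29 on the log2 scale (limma adjusted p = 0.913, 0.852 and 0.563). Pdzrn3, which encodes a ubiquitin ligase, had 0 reads in both empty libraries and 42 and 24 reads in the Wnt5a libraries, which left it under the filter.

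Negr1 lies on chromosome 3, and 5 of its 6 neighbours were too low to be tested. The exception, Zranb2, had levels of 1154 and 1397 without and 1244 and 1334 with Wnt5a, 0.02 apart on the log2 scale (limma adjusted p = 0.955). The nearest gene on one side, 4930570G19Rik, is annotated by RefSeq on the opposite strand, and the RefSeq promoter windows of its 2 annotated starts share 206 and 147 bases with that of Negr1. It had 0 and 3 reads in the empty and 19 and 13 reads in the Wnt5a libraries. Over each group 3 reads stood against 32, a ratio of 9.45 with an exact 95% interval of 2.96 to 48.2 for counting error only. No listed gene overlaps Negr1 in the reference used here, so the shared bases lie in the upstream windows only. Whether the counting used strand, and on which annotation, is not given in the sources used here. The gene on the other side, 4930592C13Rik, had 2 and 3 reads against 6 and 6.

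**Figure D4:**
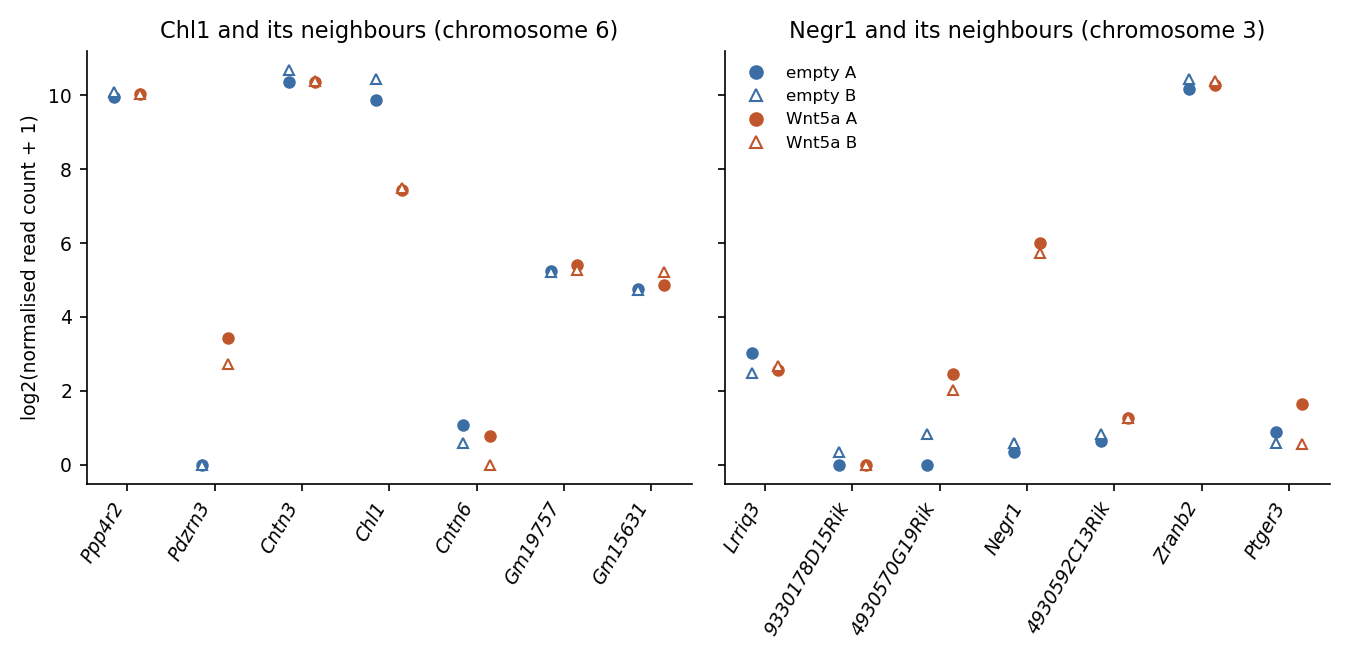
Level (vertical axis, log2 of normalised read count + 1) of Chl1 and Negr1 and of the 3 listed genes on each side in RefSeq order, not to genomic scale. Blue marks empty and orange Wnt5a, circles library A and triangles library B; Cntn3 and Zranb2 were at similar levels in both groups, while Pdzrn3 and 4930570G19Rik had reads mostly in the Wnt5a libraries.

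The genes most like Chl1 and Negr1 were found by the Euclidean distance between profiles of log2(value + 1) over the 4 libraries, each centred on its mean. Among the 5 nearest to Chl1 were Spats2l (distance 0.302), Rasgrf2 (0.502), Scara3 (0.717) and Ulbp1 (1.05), against a median of 2.73 over all tested genes. Of these, Scara3 was the most abundant, at 243 (empty A), 252 (empty B), 56.1 (Wnt5a A) and 59.8 (Wnt5a B). Spats2l, Rasgrf2 and Ulbp1 were low, at or under 31.0 in the Wnt5a libraries. Nearest to Negr1 were Brms1 (0.437), B4gat1 (0.521), Chrdl1 (0.704), Sgpp2 (0.730) and Klhdc8b (0.734), against a median of 5.41. All 5 had a level of at most 1.38 in the empty libraries. No member was among the 5 nearest genes of Chl1 or of Negr1, and Ntm came closest to Chl1, at place 305. The nearest genes lie under the median distance by construction. Most of both profiles is the difference between the groups on which Chl1 and Negr1 were chosen, so the nearest genes are a description only.

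Genes that belong to the same systems were taken from 5 lists, of which 80 genes were tested. The lists were put together with results of these data known. In all, 0 were called higher and 4 lower with Wnt5a, 5.0% of them against 2.06% of all genes, and 20 had an unadjusted limma p under 0.05. Their median log2 difference was -0.08, against 0.0026 over all genes. With the replicate block 4 were called higher and 19 lower, 28.75% against 17.0% of all genes. DESeq2 on the recovered reads called 11, edgeR called 4, and leaving out a library gave from 1 (without Wnt5a B) to 20 (without empty B), with 12 without empty A.

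Among 21 tested relatives in the immunoglobulin and contactin families, 0 were called higher and 3 lower, 14.3% against 2.06% of all genes, with a median of -0.20. The replicate block called 1 higher and 9 lower (47.6% against 17.0% of all genes), DESeq2 called 8 and edgeR 3. Mdga1, whose GPI-anchored protein binds neuroligins at synapses, fell from 453 ± 59.3 to 207 ± 20.6 (SD, n = 2), which is -1.13 on the log2 scale with an SE of 0.12 (adjusted p = 0.0079 by limma). Kirrel, a nephrin-family adhesion gene, fell from 231 ± 0.595 to 161 ± 0.110 (-0.52 on the log2 scale), and Alcam, an activated leukocyte adhesion gene also used by growing axons, fell from 2993 ± 212 to 2123 ± 138 (-0.49). Both had an adjusted p of 0.047 by limma, and both calls were lost without Wnt5a A (0.168 for Kirrel and 0.061 for Alcam), without Wnt5a B (0.213 and 0.205), without the trend, without the filter and at a minimum of 50. Of the direct relatives of the members, named here for their family after their values were seen, the fifth IgLON gene Iglon5 was at 147 ± 17.2 and 173 ± 1.37, 0.24 apart on the log2 scale (limma adjusted p = 0.392). Cntn2 was at 223 ± 52.2 and 123 ± 28.3 (log2 difference -0.86, adjusted p = 0.107 by limma, or 0.0011 under the replicate block), and Cntn4 at 222 ± 32.0 and 289 ± 29.4 (0.38, adjusted p = 0.214 by limma, or 0.011 under the block). Like Nfasc, Cntn2 lies on chromosome 1, where the median of the tested genes was -0.17.

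The 22 cytoplasmic partners, which include the ankyrins and spectrins that hold L1 family tails, had 0 calls by limma, edgeR or DESeq2 and a median of -0.10. An unadjusted limma p under 0.05 was found for 3 of them, and the block called 4 lower (18.2%, against 17.0% of all genes). The most abundant of them, the chaperone gene Hspa8, was at 19264 ± 189 and 19570 ± 392 (SD, n = 2), 0.02 apart on the log2 scale (limma adjusted p = 0.947) that turned to -0.04 after quantile normalization. Of 17 tested extracellular partners and ligands, 0 were called higher and 1 lower (5.88%, against 2.06% of all genes), with a median of -0.08. That gene, Itgav, encodes the alpha V integrin subunit, part of receptors that bind L1, and fell from 678 ± 97.5 to 392 ± 22.9 (SD, n = 2), which is -0.78 on the log2 scale with an SE of 0.11 (adjusted p = 0.024 by limma). Its call was lost without Wnt5a B (adjusted p = 0.054), without the trend (0.075) and without the filter (0.092). The block called 2 of these 17 higher, Sema3a and Ptprg, and 4 lower (35.3%, against 17.0% of all genes).

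The 11 enzymes known to cleave adhesion molecules of these families had 0 calls by limma or edgeR and 1 by DESeq2, with 1 unadjusted limma p under 0.05 and a median of -0.06. The block called 2 lower (18.2%, against 17.0% of all genes). Ncstn, a subunit of gamma-secretase and the most abundant of them, was at 1864 ± 7.61 and 1471 ± 92.9 (SD, n = 2), -0.34 apart on the log2 scale (adjusted p = 0.090 by limma, or 0.0064 under the replicate block), on chromosome 1 with its lower median. The 9 genes of GPI attachment and remodelling had 0 calls by limma, edgeR or DESeq2, with 1 unadjusted limma p under 0.05 and a median of -0.03. The block called 1 higher (11.1%, against 17.0% of all genes). Pigs, a subunit of the GPI transamidase, was at 874 ± 2.48 and 1019 ± 15.3 (SD, n = 2), 0.22 apart on the log2 scale (adjusted p = 0.187 by limma, or 0.019 under the replicate block). It lies on chromosome 11, which had a median of 0.17 over its tested genes.

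**Figure D5:**
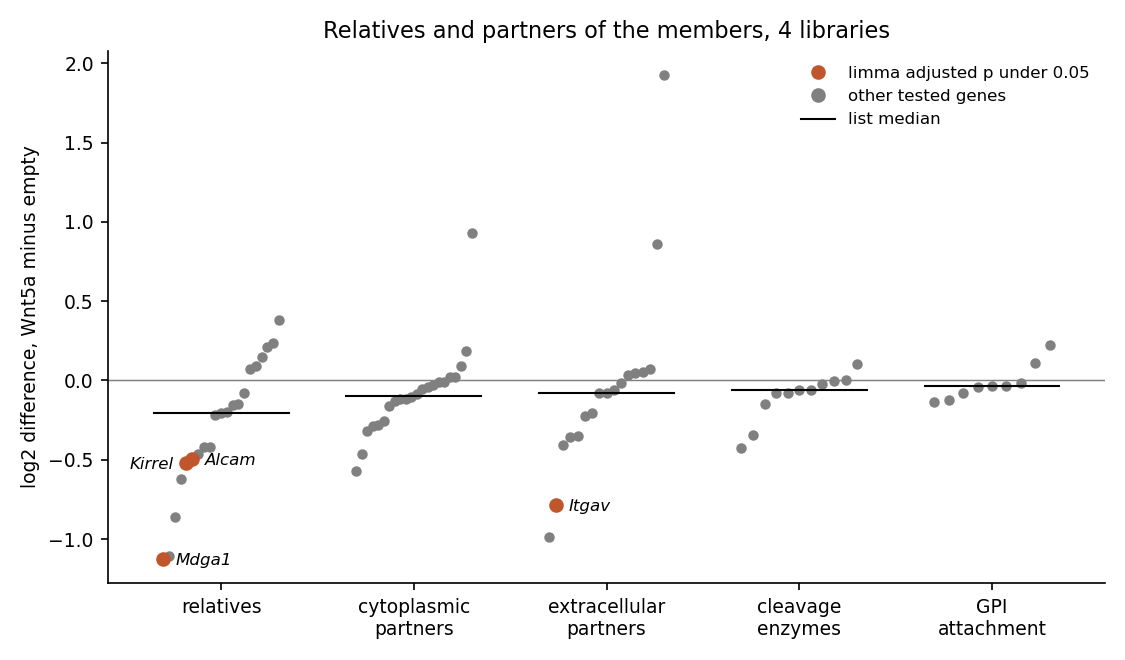
Difference between Wnt5a and empty (vertical axis, log2 of value + 1) for the 80 tested genes of the 5 lists, each point a gene and each black bar the median of its list. The 4 orange points are the genes at a limma adjusted p under 0.05, Mdga1, Kirrel, Alcam and Itgav, all lower in the Wnt5a libraries.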

How the data were processed

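Per the submitters' processing notes, TopHat, Bowtie, HTSeq and DESeq2 were used, without stated versions or roles. Genome build, annotation and strand use are not given in the sources used here. The deposited signal values are normalised gene counts. In each file 100% of them were whole multiples of the smallest value above 0 (tolerance 0.001), so whole reads were recovered by division. Genes with a mean value of at least 10 (12357) were fitted with limma 3.58.1 (R 4.3.3) on log2(value + 1), using eBayes with a trend, and p-values were adjusted by Benjamini-Hochberg at a threshold of 0.05. This scale understates changes of low genes. Members and lists were chosen with earlier results of these data known. Named were all members, Wnt5a, up to 4 called genes per list (or the most abundant gene), 3 neighbours per side and the 5 nearest profiles, of which some are not reported here. Deviations of same-numbered samples from their group means correlated in all 8 number pairs (r 0.175 to 0.220) and at 0.44 between libraries, so the numbers were taken as pairing A with A and B with B. As alternatives, pseudocounts of 0.1 and 10, no filter or a minimum of 50, quantile normalization, no trend, a replicate block and leaving out each library were run, as were edgeR 4.0.16 (246 genes called) and DESeq2 1.42.0 (538) on recovered reads. The fits were also run on counts simulated with a common dispersion for all genes. For the comparison of groups these held no difference between libraries A and B, unlike the data, and their outcome is not reported here. Chromosomes, gene order and promoter windows are from RefSeq GRCm38.p6 (17619 symbols matched, 382 by synonym). The deposited files name no build, so the coordinates shown are those of RefSeq, not of the files. Lengths are from GENCODE M21.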

Additional observations from a re-analysis of the deposited data

Results flagged for a closer look

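In 2 named genes, library B differed from library A in opposite directions in the 2 groups, with every sample of B apart from every sample of A. Alcam was 0.14 higher in B in the empty and 0.13 lower in B in the Wnt5a cells on the log2 scale (-0.13). Wnt5a differed by -0.53 between the empty and by 0.52 between the Wnt5a libraries. Neither difference between the groups was tested, since 1 library remains per group and set.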

How the results depend on the processing

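With 2 libraries per group, counts of calls moved with the settings. Against 254 genes called between Wnt5a and empty, the replicate block gave 2095, DESeq2 538, no trend 158, no filter 146, a minimum of 50 gave 102, and leaving out a library gave 138 to 1098. Where a library is left out, the lone sample of its group is assumed to vary like the others. Against 4 partner genes, the replicate block gave 23, DESeq2 11, a minimum of 50 gave 2, no filter 1, and leaving out a library 1 to 20. Between libraries B and A, 916 genes became 395 with DESeq2 (adjusted p given for 7565), and 0 in limma without the trend or the filter, where 2680 and 3512 had an unadjusted p under 0.05. The 2 members called there became 0 in the same fits, with 3 and 2 at an unadjusted p under 0.05, and edgeR kept the count at 2. DESeq2 gave no adjusted p for Lsamp and Opcml, and leaving out a library left no residual degree of freedom for this contrast. The cause of these shifts was not tested.

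Sign changes were few and near 0. Lsamp lay at -0.21 to 0.34 when a library was left out. Without a library, Cntn3 lay at -0.30 to 0.01 (0.0094 at the top), Ppp4r2 at -0.037 to 0.098 and Zranb2 at -0.12 to 0.16. Hspa8 was -0.036 after quantile normalization. Negr1 between libraries B and A was 0.21 with a pseudocount of 0.1 and 0.15 after quantile normalization. Of the members' log2 differences between the groups under the alternatives, 95 moved by less than the spread of libraries, 2 changed sign (Lsamp) and 6 moved more, 5 of them of Negr1, at 2.70 to 7.18, and 1 of Nfasc, at -0.25. Coding length from a protein table was not run.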

Other observations

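Between libraries B and A, 9 of the 80 tested genes of the 5 lists were called by limma, 11.25% against 7.41% of all genes, and 8 of the 9 were lower in B. They were chosen for naming after their values were seen. Ank3, which encodes the ankyrin of the axon initial segment that binds L1 family tails, was at 606 and 393 in empty A and B and at 457 and 351 in Wnt5a A and B, -0.50 from A to B on the log2 scale (adjusted p = 0.019 by limma). Tnr, which encodes the contactin ligand tenascin R, was at 1029 and 769 and at 815 and 595 in the same order, -0.44 from A to B on the log2 scale (adjusted p = 0.015 by limma). Bace2, a protease gene, was at 633 and 404 and at 429.7 and 331, -0.51 from A to B on the log2 scale (adjusted p = 0.021 by limma). Cntn2, Cntnap5a, Cntnap5b and Ptprz1 were also among those lower in B, and Ap2m1 was higher. For each of these 9 genes the step from A to B had the same sign in both groups. The fit averages the steps of both groups and counts their disagreement as error. A shared sign is therefore largely set by the call and adds no support to it.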
